A study of Homo sapiens with 30 samples.

Results

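U87 glioblastoma cells kept in interferon-γ (IFN-γ) for 28 days were compared with U87 cells kept in it for 14 days. The comparison used 5 of the 30 libraries of the series: the 3 U87 libraries of the D28 group (replicates 1 to 3), titled D28W in the labels, whose time label gives continued treatment, and the 2 U87 libraries labelled D14 whose columns carry a name of their own (replicates 2 and 3). A pair of columns of the U87 table shares 1 name, so those 2 columns were left out, and the first replicates of D14 and of D3 have no column of their own here. The study exposed the established human glioblastoma lines U87 and U251 to IFN-γ for up to 4 weeks and sequenced their polyadenylated RNA in bulk. Each line contributed an Untreated group that the labels date to day 3, a group with IFN-γ for 3 days (D3), a group with IFN-γ for 14 days (D14), a group with IFN-γ for 28 days (D28) and a washout group (D28WO) from which IFN-γ was withdrawn after day 14 and which was sampled at day 28. The treatment protocol in the labels gives IFN-γ at 1 µg/mL, while another label field and the study's methods state the amount or the day of the untreated cells differently. The D28 and D28WO cultures both continued from D14 cultures, and the replicates are described as independent culture preparations. U87 and U251 are 1 line each, they are listed as commonly misidentified lines, and by the study's methods they were not authenticated after they were obtained.

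IFN-γ is the type II interferon. It binds the receptor chains IFNGR1 and IFNGR2, whose kinases are JAK1 and JAK2, and the signal reaches promoters through GAS elements. IRF1, itself an early target, then binds interferon-stimulated response elements (ISREs), and the genes reached in this way serve antigen presentation, leukocyte recruitment, cell-intrinsic defence and feedback on the pathway. Glioblastoma cells carry the receptor, and the pathway is known in them for raising HLA molecules as well as inhibitory molecules such as the tryptophan-degrading enzyme IDO1.

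Levels are given in TPM, a relative abundance of transcripts that is normalised for length, so that levels can be compared between genes of a library. Every library sums to the same total, and the deposited table carries no read counts, so the depth of the libraries is unknown. Between 26096 and 28438 genes were above 0 in the 5 libraries, with overlap between the D14 and D28 libraries (exact permutation test, two-sided p = 0.8, where 2 libraries against 3 cannot give a p below 0.1). The log2 levels correlated at 0.966 between the D14 libraries, at 0.960 to 0.965 among the D28 libraries and at 0.948 to 0.956 between both groups. Of the markers of a glioblastoma or glial line, VIM (1182 to 1309 TPM) and CD44 (553 to 649 TPM) were abundant in all 5 libraries, NES, GFAP and OLIG2 were present, S100B was low and SOX2 did not exceed 0.296 TPM. In bulk RNA, fewer cells expressing a gene and less RNA of it per cell cannot be told apart.

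The U87 libraries labelled D14 lay close to the Untreated libraries in their interferon targets, although the label gives them 14 days of IFN-γ. Over the 120 tested genes of 10 lists (pathway, transcription factors, HLA class I and II, CXCR3 ligands, guanylate-binding proteins, OAS, IFIT and IFITM, other antiviral genes, sensors, and APOL, PARP and TRIM genes), the libraries labelled D14 had medians of 5.34 and 5.40 on the log2(TPM + 1) scale, against 5.03 to 5.27 in Untreated, 6.38 to 6.45 in D3, 6.47 to 6.56 in D28 and 6.45 to 6.52 in D28WO. The D14 libraries therefore stood apart from the other 3 groups that had received IFN-γ. Of these 120 genes, 7 were higher and 0 were lower in D14 than in Untreated, with a median log2 fold change of 0.13, while 1.89% of all genes were higher, 0.209% were lower and the median of all genes was 0.15. None was higher and 56 were lower in D14 than in D3, with 0.576% of all genes higher and 2.05% lower. The 7 genes higher in D14 than in Untreated were BST2, OAS1, OAS2, IFITM1, MX2, DHX58 and GBP5. In U251, where 123 genes of these lists were tested, their median log2 fold change of D14 over Untreated was 1.21 against 0.096 for all genes of that line. Against D3, 1 of these 123 genes was higher and 36 were lower in D14 of U251, with a median of -0.54. Of all 23667 genes tested in U251, 756 were higher and 779 lower in D14 than in D3, with a median of -0.010. What accompanies this low level in U87 was not tested. Whether these 2 libraries carry the right label cannot be told from the values, and every difference of D28 minus D14 given here rests on that label.

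Between D14 and D28 many interferon targets rose in U87, the tested guanylate-binding proteins among them, the tryptophan-degrading enzyme IDO1 rose as well, and a smaller, mixed set of genes fell. Of 22918 genes tested, 409 (1.78%) were higher and 76 (0.332%) were lower at D28, at a Benjamini-Hochberg adjusted p under 0.05 in limma and an absolute log2 fold change over 1. Of the 120 interferon targets 61 were higher and 0 lower, with a median log2 fold change of 1.04. Every one of the 485 called genes had D14 and D28 libraries that did not overlap, while of all tested genes 17.1% had every D28 library above both D14 libraries and 15.5% every D28 library below them. The calls used the same values, so this count is a description. The 409 higher genes comprised 302 protein-coding genes, 84 lncRNAs and 23 others, and their median TPM was 3.57 at D14 and 18.3 at D28. The 76 lower genes comprised 39 protein-coding genes, 24 lncRNAs and 13 others, with a median TPM of 9.01 at D14 and 1.13 at D28. The median log2 fold change was 1.62 among the higher genes and -1.61 among the lower ones, while that of all tested genes was 0.0035. Without the third D14 library 268 genes were higher and 58 lower, and without the second D14 library 274 and 59. With only the D14 and D28 libraries in the fit 192 were higher and 47 lower, and of the genes named below TAPBPL, CCL5, CXCL1, CCL20, TLR4, CHAC1, MT1G, THBS1, IFNLR1, H3C4, LAPTM5, TMEFF2, SYTL5 and SERPINB2 then lost their calls (adjusted p 0.0557 to 0.242), as did others where stated. Higher genes made up 84.3% of the calls, and 74.3% after quantile normalisation (367 higher, 127 lower).

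**Figure D1:**
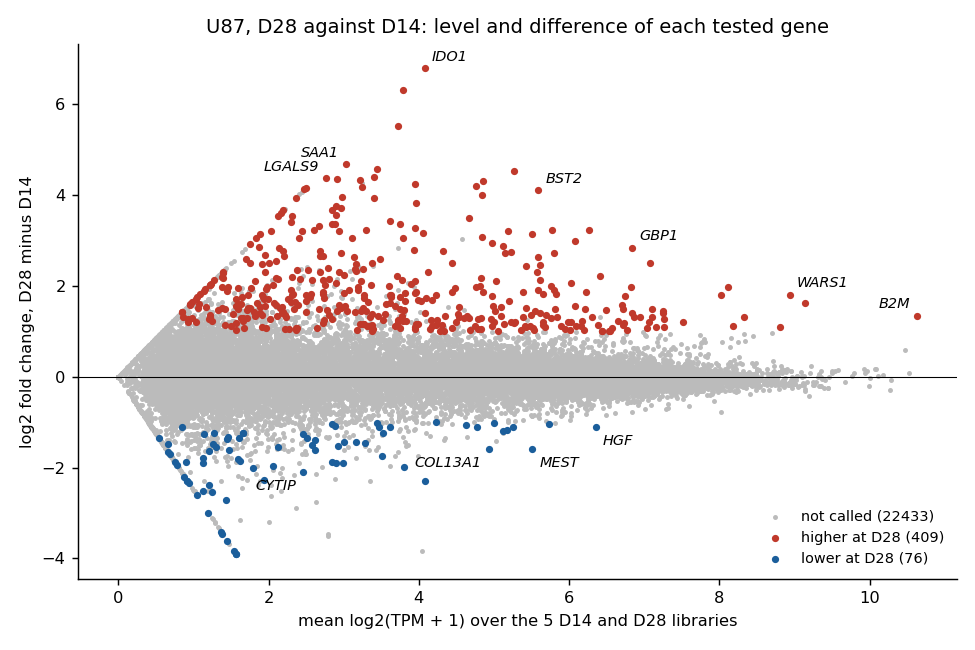
Each point is 1 of the 22918 tested genes, with its mean log2(TPM + 1) over the 5 D14 and D28 libraries of U87 on the x axis and its log2 fold change, D28 minus D14, on the y axis. The 409 genes higher at D28 (red) include very abundant ones such as B2M, whereas the 76 lower genes (blue) lie mostly at low levels, and 22433 genes (grey) were not called.

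The 10 largest rises ran from a log2 fold change of 6.79 to 4.19. They were taken among genes with at least 5 TPM at D28 and no clone, locus, antisense or pseudogene symbol. IDO1, which opens the kynurenine route of tryptophan breakdown, was listed at 0 and 0 TPM in the D14 libraries and at 95.5, 107 and 130.4 TPM in the D28 libraries. It was listed at 0 in 2 of the 3 Untreated libraries too, and its D3 libraries held 81.3 and 85.9 TPM. SAA1, an acute-phase apolipoprotein, had 0 and 0.352 TPM at D14 and 22.6, 32.1 and 33.5 TPM at D28, and its neighbour SAA2 went from 0 and 0 to 13.3, 11.7 and 18.8 TPM. These copies are nearly identical, so the division of reads between them is uncertain. LGALS9, a galectin that binds the inhibitory receptor TIM-3, rose from 0.111 and 0.106 TPM to 25.3, 23.7 and 17.4 TPM, and the galectin-family lncRNA LGALS17A from 0.749 and 0 to 57.6, 55.8 and 67.99 TPM. SLC2A5, the fructose transporter GLUT5, rose from 1.002 and 0.422 to 37.2, 35.8 and 31.8 TPM. The remaining members of the 10 were APOL4 4.58, GRIP2 4.36, GBP5 4.31, GBP4 4.24 and IFI27 4.19 (log2 fold change), where APOL4 belongs to the apolipoprotein L family, GRIP2 is a scaffold of glutamate receptors, GBP4 and GBP5 are guanylate-binding GTPases and IFI27 is a mitochondrial interferon-induced protein. Adjusted p-values of the 10 lay between 5.67e-10 and 0.000164, and each call held under every alternative setting run.

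Of the genes that carry the signal, the ligand-binding receptor chain IFNGR1 had 40.8 and 52.6 TPM at D14 and 41.7, 50.9 and 53.3 TPM at D28, overlapping groups with a log2 fold change of 0.06 (adjusted p = 0.898). IFNGR2, the second chain, was at 83.4 and 63.7 TPM against 41.2, 41.7 and 48.1 TPM, so its D28 libraries lay below both D14 libraries, with a log2 fold change of -0.73 (adjusted p = 0.00445) that did not reach the fold limit. JAK1 (0.096) and JAK2 (0.70) did not reach it either. IRF1 (chr5:132440440-132508719, minus strand), the activator of ISRE-bearing genes, rose from 134 and 109.8 TPM to 539, 457 and 443 TPM, a log2 fold change of 1.97 ± 0.11 (SE, adjusted p = 5.55e-07). IRF1 therefore sat well above D14 in each D28 library, close to its level of D3 (445 and 450.1 TPM).

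Among 16 tested interferon-induced transcription factors, IRF1 among them, 7 rose and 0 fell, with a median log2 fold change of 0.88. Those that rose included BATF2 4.004, ETV7 3.56, CIITA 1.77, NLRC5 1.26 and IRF9 1.14. CIITA, the master regulator of HLA class II, had 49.7 and 50.9 TPM at D14 and a nearly uniform 175, 174 and 175 TPM at D28. NLRC5 plays the corresponding part for class I, and IRF9 is the DNA-binding subunit of the ISGF3 complex. None of the 5 negative feedback regulators passed both limits: SOCS1, the JAK inhibitor that IFN-γ induces, was at 18.03 and 19.1 and 35.5, 32.4 and 30.4 TPM (log2 fold change 0.79, adjusted p = 0.0179), the ISG15 protease USP18 had a log2 fold change of 0.63 (adjusted p = 0.0158) and SOCS3 one of -0.078 (adjusted p = 0.665).

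**Figure D2:**
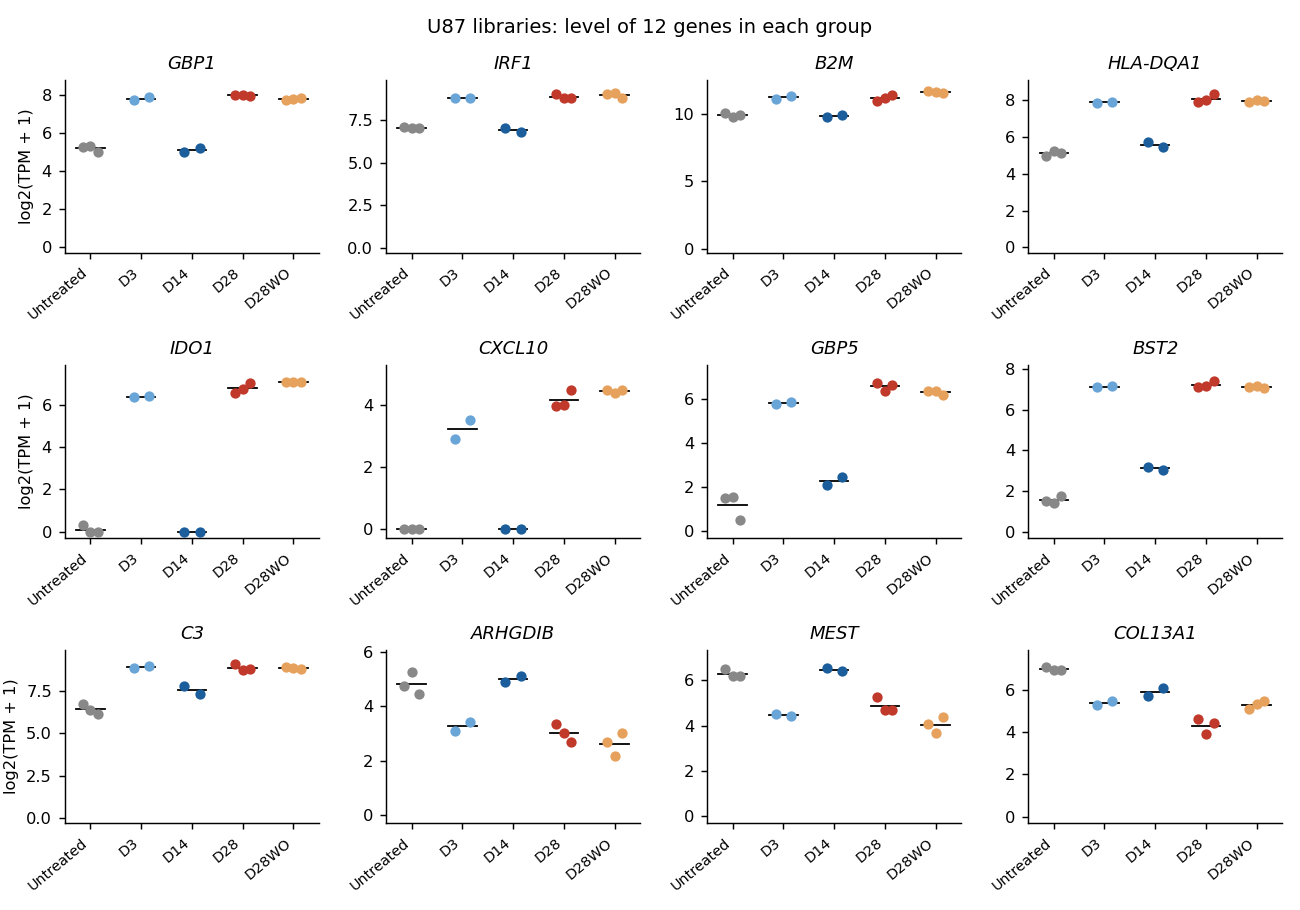
Level of 12 genes in the U87 libraries as log2(TPM + 1) on the y axis, with the 5 groups on the x axis, a dot for each library and a line at the group mean. The first 9 genes are high in D3, D28 and D28WO and low in Untreated and D14, with C3, BST2 and GBP5 higher in D14 than in Untreated. ARHGDIB and MEST are low in D3, D28 and D28WO, and COL13A1 is highest in Untreated and lowest in D28.

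Promoters of genes from different steps of the response are shown for 2 sequence motifs. The 250 bases upstream of the annotated start, on the gene's strand, were taken from RefSeq (GRCh38.p14), and capitals mark a match to the ISRE core (GAAA, any 2 bases, GAAA) or to the GAS motif TTCNNNGAA on either strand. IRF1 (chr5:132490774-132491023, minus strand) carried a GAS match, TAP1 (chr6:32853705-32853954, minus strand) and CXCL10 (chr4:76023498-76023747, minus strand) at least 1 ISRE match each, and BST2 (chr19:17405631-17405880, minus strand) and IFI27 (chr14:94110486-94110735, plus strand) matches to both. In these 2 promoters ISRE and GAS matches overlap, except for the second GAS match of BST2, which lies apart. The RefSeq start used here can differ from the end of the GENCODE gene, since the stretches of IRF1 and IFI27 lie inside the GENCODE gene and that of TAP1 overlaps it. These 5 were chosen because they hold a match, and the same stretch of BATF2, GBP4, LGALS9 and PSMB9, which also rose, held none.
IRF1: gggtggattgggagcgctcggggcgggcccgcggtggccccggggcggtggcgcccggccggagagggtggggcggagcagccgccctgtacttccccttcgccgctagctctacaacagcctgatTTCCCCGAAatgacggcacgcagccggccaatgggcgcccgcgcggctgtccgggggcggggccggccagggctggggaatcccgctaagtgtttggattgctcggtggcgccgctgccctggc
TAP1: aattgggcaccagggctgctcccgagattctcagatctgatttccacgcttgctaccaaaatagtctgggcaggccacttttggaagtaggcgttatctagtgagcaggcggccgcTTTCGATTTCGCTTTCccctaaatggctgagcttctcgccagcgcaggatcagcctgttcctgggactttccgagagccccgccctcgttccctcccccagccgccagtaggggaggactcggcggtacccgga
CXCL10: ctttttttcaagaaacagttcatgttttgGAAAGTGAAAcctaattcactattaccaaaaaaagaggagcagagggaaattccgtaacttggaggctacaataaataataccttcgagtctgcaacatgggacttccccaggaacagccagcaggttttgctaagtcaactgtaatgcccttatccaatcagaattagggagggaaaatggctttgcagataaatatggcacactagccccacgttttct
BST2: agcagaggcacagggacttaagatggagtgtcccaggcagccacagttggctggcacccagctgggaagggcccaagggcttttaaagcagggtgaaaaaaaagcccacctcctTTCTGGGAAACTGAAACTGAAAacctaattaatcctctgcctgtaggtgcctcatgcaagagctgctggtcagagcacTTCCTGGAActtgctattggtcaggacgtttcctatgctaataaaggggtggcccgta
IFI27: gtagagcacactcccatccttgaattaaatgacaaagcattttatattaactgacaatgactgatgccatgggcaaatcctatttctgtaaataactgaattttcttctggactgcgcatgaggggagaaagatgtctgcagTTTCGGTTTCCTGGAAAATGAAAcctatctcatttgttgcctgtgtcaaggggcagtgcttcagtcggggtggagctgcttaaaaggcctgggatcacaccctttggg
The ISRE core, searched in the window from 250 bases before to 50 bases after the start on both strands, was present in 50 of the 211 risen protein-coding genes that the promoter table holds, 23.7%. It was present in 354 of 11594 tested genes with a promoter, 3.05%, and in 3.18% of all 15343 promoters of the table. Among the risen genes that belong to none of the gene lists it was found in 25 of 144, 17.4%, and among those in a list in 25 of 67, 37.3%. The GAS motif was found in 31 of the 211 risen genes, 14.7%, against 6.53% of the tested genes and 6.95% of all promoters. Of the 39 fallen protein-coding genes 28 had a promoter in the table, of which 0 held the ISRE core and 3 the GAS motif. A match describes these letters in this window and is no evidence of binding.

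Genes of HLA class I and class II presentation rose in part or, by adjusted p alone, nearly throughout. In the class I list, 5 of 13 members passed both limits, none fell, 12 passed the adjusted p alone (2.94% of all genes were higher and 1.12% lower by that rule), and the median log2 fold change was 0.94. B2M, the invariant light chain and the most abundant member, had 871 and 951 TPM at D14 and 1999.6, 2328 and 2658 TPM at D28, a log2 fold change of 1.34 ± 0.12 (SE, adjusted p = 3.22e-05). TAP1, a subunit of the peptide transporter, rose from 59.8 and 51.8 to 144, 159 and 175 TPM, and the non-classical HLA-F from 79.8 and 88.9 to 232, 216 and 225 TPM. The heavy chains HLA-B (0.97) and HLA-C (0.94) differed by less than the fold limit, although the D28 libraries of each lay above both D14 libraries. The peptide editor TAPBPL (1.29) lost its call without the second D14 library, where its log2 fold change was 0.97 (adjusted p = 0.101). Reads of HLA genes can be divided differently among these similar sequences, so single members are less certain than the list.

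Of 15 class II genes 9 rose, none fell, and all 15 had an adjusted p under 0.05, with a median log2 fold change of 1.12. HLA-DQA1 (chr6:32628179-32647062, plus strand), an α chain of the DQ molecule, had 51.1 and 42.7 TPM at D14 and 239, 258 and 318 TPM at D28 (log2 fold change 2.50, adjusted p = 2.32e-07). CD74, the invariant chain that guards the class II groove, went from 297 and 274 TPM to 1030.0, 773 and 863 TPM (log2 fold change 1.62, adjusted p = 6.5e-06). The largest differences were those of the regulators of peptide exchange HLA-DOB (3.93) and HLA-DOA (3.23), and the protease cathepsin S (CTSS, 1.57) and the exchange factor HLA-DMB (1.49) rose as well. Without the third D28 library HLA-DPA1 was at a log2 fold change of 0.97 and so under the fold limit, and HLA-DOA and HLA-DPA1 lost their calls with only the D14 and D28 libraries in the fit (adjusted p = 0.06 and 0.0784). Of the 5 genes of the inducible proteasome, PSMB9 rose from 71.6 and 68.1 to 168, 162 and 201 TPM, and PSMB8 (0.75) and PSMB10 (0.95) were higher in every D28 library without reaching the fold limit. That list had 3 called members without the second D14 library and 2 without the first or the second D28 library. The 14 constitutive proteasome subunits had no call and a median of -0.053.

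Of the 5 genes in the list of CXCR3 ligands, which draw T cells and NK cells, CCL2 and CCL5, 3 rose and 0 fell, with a median log2 fold change of 1.40 (3.21 with a pseudocount of 0.1 and 2.53 at a filter of 1 TPM). CXCL10 (chr4:76021118-76023497, minus strand) was listed at 0 in both D14 libraries and had 14.8, 15.3 and 21.4 TPM at D28 (adjusted p = 1.17e-06), and CXCL11 was listed at 0 and had 11.4, 10.4 and 13.4 TPM (adjusted p = 6.5e-06). The remaining CXCR3 ligand, CXCL9, was listed at 0 at D14 and had 1.07, 0.878 and 0.587 TPM at D28 (adjusted p = 0.104), and the monocyte attractant CCL2 had a log2 fold change of 0.49 (adjusted p = 0.303). CCL5 rose (1.40, adjusted p = 0.0498), but its adjusted p was 0.106 to 0.289 without either D14 library or without the first or second D28 library, which leaves 2 called members of 5.

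Among 13 tested neutrophil and monocyte chemokines 7 rose and 0 fell, with a median log2 fold change of 1.33. CX3CL1, the membrane-bound fractalkine, had 1.12 and 0.806 TPM at D14 and 7.89, 8.37 and 11.1 TPM at D28, and the monocyte chemokine CCL8 0.418 and 0 against 12.03, 12.6 and 10.4 TPM. CXCL5, a neutrophil attractant, rose from 1.96 and 1.85 to 10.4, 13.1 and 9.04 TPM, and its relative CXCL1 from 7.84 and 6.02 to 18.1, 18.3 and 20.02 TPM. CXCL8, the main neutrophil attractant, was at 167 and 150.4 against 209, 227 and 217 TPM (log2 fold change 0.45), under the fold limit. Without the third D14 library 4 members were called. There the adjusted p of CXCL16 was 0.124 and that of CCL20 0.134, while CSF3 had a log2 fold change of 0.91 (adjusted p = 0.0385), and CXCL16 also lost its call without the second D14 library (0.144) and without the first (0.0668) or second (0.0604) D28 library.

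Of 9 checkpoint ligands and tryptophan enzymes 5 rose, with IDO1 and LGALS9 described above as the largest. WARS1, the tryptophanyl-tRNA synthetase, had 238 and 224 TPM at D14 and 827, 745 and 860.1 TPM at D28 (log2 fold change 1.81, adjusted p = 1.41e-07). TNFRSF14, the receptor HVEM, rose from 25.2 and 20.3 to 86.7, 99.8 and 95.8 TPM, and PDCD1LG2, which encodes PD-L2, had a log2 fold change of 1.10. The median of the list was 1.10. CD274, which encodes PD-L1, had 44.5 and 46.4 TPM at D14 and 72.8, 66.4 and 61.7 TPM at D28, higher in each D28 library but not past the test (log2 fold change 0.55, adjusted p = 0.13).

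All 5 tested guanylate-binding proteins, GTPases of cell-autonomous defence, rose, with a median log2 fold change of 2.85. GBP1 had 31.7 and 36.6 TPM at D14 and 253, 256 and 244 TPM at D28, and GBP5 3.27 and 4.46 TPM against 107, 80.3 and 99.2 TPM (log2 fold change 4.31, adjusted p = 1.94e-06). GBP2 (1.97) and GBP3 (2.51) rose by less. The 2 other members of the list were below the filter on low values.

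Families better known as targets of type I interferon rose in part. Of 12 OAS, IFIT and IFITM genes 6 rose, with a median of 1.11. These were the RNA-sensing synthetases OAS1 1.32, OAS2 2.75 and OAS3 1.44, the RNA-binding IFIT2 2.10 and IFIT3 2.13 and the entry inhibitor IFITM1 2.64. The call of OAS1 was lost without the third D14 library (log2 fold change 1.26, adjusted p = 0.0588). Of 24 further antiviral effectors 12 rose, with a median of 0.97. BST2 (chr19:17402939-17405630, minus strand), the tethering factor tetherin, had 8.09 and 7.32 TPM at D14 and 136, 144 and 169 TPM at D28, a log2 fold change of 4.11 ± 0.12 (SE, adjusted p = 4.55e-09). RSAD2, the enzyme viperin, had 0.234 and 1.06 against 12.5, 14.996 and 18.2 TPM, and XAF1 (3.24), CMPK2 (3.05) and EPSTI1 (2.94) rose too. ISG15, a ubiquitin-like modifier, was at 60.5 and 54.1 TPM against 82.5, 103 and 117 TPM (log2 fold change 0.79, under the fold limit), and MX1 overlapped between the groups (adjusted p = 0.514).

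Of 10 tested nucleic acid sensors 5 were called, IFIH1 (1.44), TLR3 (2.11), DHX58 (1.17), TLR4 (1.06) and AIM2 (1.001), but 2 without the third D14 or the third D28 library and 3 without any other of the 5 libraries. The adjusted p of DHX58 was 0.068 to 0.245 and that of TLR4 0.0589 to 0.2 with 1 library left out, while AIM2 fell under the fold limit at 0.86 without the third D14 library, 0.997 without the first D28 library and 0.97 without the third D28 library. IFIH1, the RNA sensor MDA5, had 17.4 and 16.04 TPM at D14 and 44.9, 48.8 and 47.5 TPM at D28, and TLR3, a sensor of double-stranded RNA, 11.7 and 13.5 against 58.7, 56.4 and 57.9 TPM. Of 18 APOL, PARP and TRIM genes 11 rose and 0 fell, with a median of 1.20, led by APOL4, by the trypanolytic factor APOL1 (12.3 and 10.4 against 106, 105 and 113 TPM) and by APOL3 (2.73), with the ADP-ribosyltransferase PARP14 (1.81) among them.

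Of 12 tested cell death mediators 3 rose, which were TNFSF10, the death ligand TRAIL (1.09 and 2.12 TPM at D14, 21.001, 22.2 and 26.4 TPM at D28), XAF1, already counted above, and CASP1, the inflammatory caspase (1.66). Of 11 complement genes 6 rose, with a median of 1.31. C3, the central component, had 218 and 158 TPM at D14 and 545, 411 and 439.9 TPM at D28 (log2 fold change 1.31, adjusted p = 0.001), the C1 inhibitor SERPING1 18.5 and 15.04 against 91.6, 89.8 and 108 TPM, and the proteases and factors C1R 1.49, C1S 1.46, C2 2.38 and CFB 1.35 completed the 6. With only the D14 and D28 libraries in the fit the call of C3 was lost (adjusted p = 0.0737). C3, CFB and SERPING1 were also higher in D14 than in Untreated, by log2 fold changes of 1.13, 1.03 and 1.19. Of 6 tested leukocyte adhesion genes ICAM1, a ligand of the integrin LFA-1, rose from 32.3 and 34.7 to 134, 110.1 and 129 TPM, while VCAM1 had an adjusted p of 0.242. In the list of 21 NF-kB subunits and targets 6 rose and 0 fell, with a median of 0.49. They included the cytokines IL32 (8.36 and 5.795 TPM at D14, 78.7, 52.04 and 71.99 TPM at D28) and IL6 (68.2 and 57.4 against 170.0, 164 and 168 TPM), the nuclear regulator NFKBIZ (1.08) and ICAM1, which both lists hold.

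**Figure D3:**
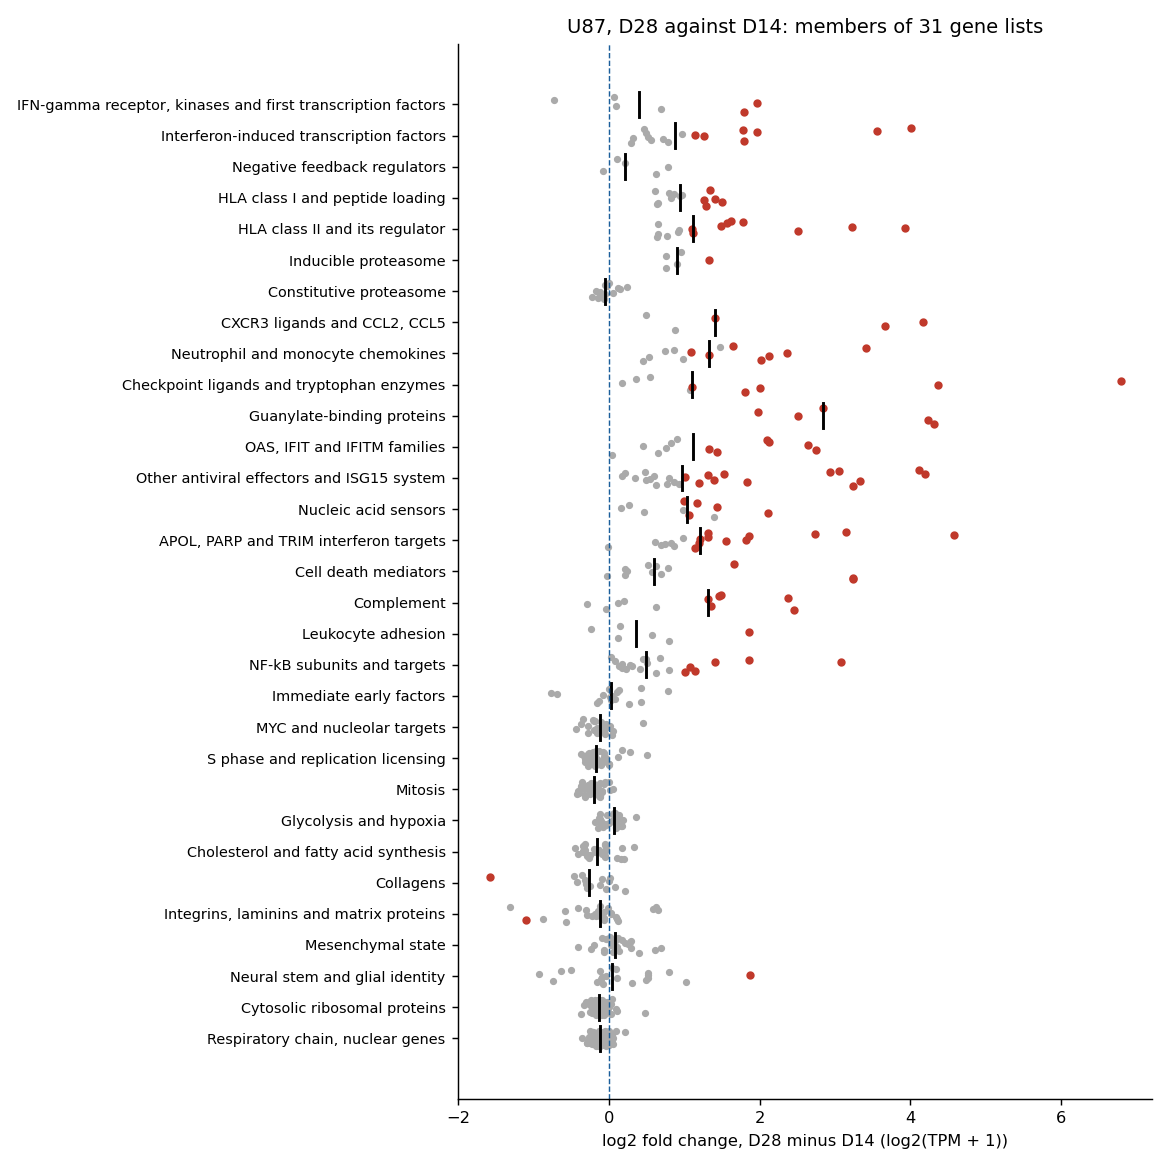
Log2 fold change, D28 minus D14, of the tested members of 31 gene lists in U87 (x axis, on the log2(TPM + 1) scale), with 1 list in each row, a point for each gene, red for members past both limits and a black bar at the list's median. The dashed line is the median of all tested genes, 0.0035. Lists of interferon targets lie to its right and guanylate-binding proteins farthest at 2.85, while proliferation, ribosomal and respiratory chain lists lie within 0.2 of 0.

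Of the 409 risen genes 314 belonged to none of the lists, and the following were chosen from them after their values were seen. PLAAT4, a phospholipase that retinoids and interferons induce, rose from 16.4 and 21.2 to 154, 138 and 169.8 TPM, and IL15RA, which presents IL-15 to lymphocytes, from 32.4 and 33.03 to 173, 142 and 156 TPM. Further secreted or surface molecules were the soluble IL-18 antagonist IL18BP (2.72), the B cell cytokine BAFF (TNFSF13B, 2.06), the CD7 ligand SECTM1 (3.22), the IL-12 receptor chain IL12RB1 (3.21), the γδ T cell ligand BTN3A1 (1.32) and the NKG2D ligand MICB (1.53). Enzymes among them were the RNA exonuclease ISG20 (2.43), the acyl-CoA synthetase ACSL5 (3.50), GTP cyclohydrolase (GCH1, 1.87) and cholesterol 25-hydroxylase (CH25H, 1.84). The receptor chaperone RTP4 had a log2 fold change of 3.71. The complement genes C4A (1.35) and C4B (2.05) rose too, with the division of reads between these near copies uncertain. The calls of C4A, C4B and CH25H were lost with only the D14 and D28 libraries in the fit (adjusted p 0.0513 to 0.0656).

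Genes that fell were fewer and served mixed functions. The 10 largest falls ran from -2.09 to -1.58. They were taken among genes with at least 5 TPM at D14 and no clone, locus, antisense or pseudogene symbol. The 76 lower genes as a whole reached a log2 fold change of -3.92. MEST (chr7:130486171-130506465, plus strand), an imprinted gene of the hydrolase family, had 91.1 and 83.6 TPM at D14 and 36.7, 24.7 and 25.02 TPM at D28, a log2 fold change of -1.59 ± 0.21 (SE, adjusted p = 0.000748), and 88.1, 72.1 and 72.3 TPM in Untreated. COL13A1 (chr10:69801880-69964275, plus strand), a transmembrane collagen, had 50.5 and 66.7 TPM at D14 and 23.3, 13.8 and 20.3 TPM at D28 (log2 fold change -1.58, adjusted p = 0.000437), with 133, 121 and 119 TPM in Untreated, so that its level was already lower at D14 than in Untreated (-1.08). ARHGDIB, a GDP-dissociation inhibitor of small GTPases, fell from 28.5 and 33.3 to 9.09, 7.01 and 5.47 TPM. The sodium leak channel NALCN went from 20.9 and 24.1 to 9.24, 5.57 and 4.17 TPM, and the secreted SCUBE3 from 14.3 and 16.8 to 4.07, 3.403 and 2.84 TPM. The calls of these 5 genes held without any 1 of the libraries, while those of NALCN, MEST and COL13A1 were lost when only the D14 and D28 libraries entered the fit.

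The other 5 of the 10 depended on single libraries. CYTIP, a regulator of cytohesins, had 9.06 and 16.2 TPM at D14 and 1.58, 1.24 and 4.06 TPM at D28, and its adjusted p of 0.0155 became 0.168 without the third D14 library, 0.0595 without the first D28 library and 0.0554 without the second. The epithelial keratin KRT19 (5.11 and 6.27 against 0.410, 0.778 and 1.44 TPM) had 0.081 and 0.121 without the second and the third D14 library and 0.0538 without the first D28 library, and the urea transporter SLC14A1 (5.61 and 5.22 against 1.71, 0.226 and 0.849 TPM) 0.143, 0.11 and, without the second D28 library, 0.055. CCDC178 (-2.002) and the small GTPase RASD2 (-1.97) reached 0.0538 and 0.0624 without the third D14 library. Chosen after their values were seen, the growth factors HGF (129 and 127 TPM at D14, 57.9, 62.2 and 58.1 TPM at D28) and PGF (53.8 and 62.1 against 21.03, 24.8 and 30.2 TPM) fell, as did the receptor NOTCH3 (-1.20) and the integrin-like ITGBL1 (-1.10). With only the D14 and D28 libraries in the fit the calls of PGF, NOTCH3 and ITGBL1 were lost (adjusted p 0.0525 to 0.0755), as were those of CYTIP, KRT19, SLC14A1, CCDC178 and RASD2 (0.0954 to 0.171).

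Lists of proliferation and metabolism had no member past both limits. The 39 genes of S phase and replication licensing had a median of -0.18, the 36 mitosis genes one of -0.20, in which 2 (MAD2L1 and NDC80) had an adjusted p under 0.05, and the 26 tested G1 regulators and p53 targets one of 0.11. MKI67, a marker of cycling cells, was at 87.5 and 89.96 TPM and 87.1, 88.8 and 71.04 TPM (adjusted p = 0.743), and MYC at 123 and 127 TPM and 125, 115 and 125 TPM (adjusted p = 0.858). The median was -0.12 for 23 MYC and nucleolar targets, 0.070 for 30 glycolysis and hypoxia genes, -0.16 for 28 cholesterol and fatty acid genes, 0.042 for 30 PI3K, AKT and mTOR components, -0.14 for 85 cytosolic ribosomal proteins, -0.12 for 78 nuclear respiratory chain genes, -0.15 for 12 mitochondrial mRNAs and -0.17 for 14 heat shock genes. These small medians were unstable in part: with 1 library left out that of the PI3K list ran from -0.042 to 0.089, that of the mitochondrial mRNAs from -0.33 to 0.025 and that of the glycolysis list from 0.014 to 0.066. Other medians stayed below 0 in these fits. S phase ran from -0.24 to -0.12, mitosis from -0.25 to -0.17, ribosomal proteins from -0.18 to -0.092 and the respiratory chain from -0.17 to -0.064. Below 0 were 35 of 39 S phase, 34 of 36 mitosis, 78 of 85 ribosomal and 70 of 78 respiratory chain genes. Among 16 immediate early factors, with a median of 0.032, FOS was at 346 and 366 TPM and 209, 240.1 and 181 TPM, which passed the test but not the fold limit (-0.77, adjusted p = 0.00198).

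Matrix and identity genes gave single calls. COL13A1 was the called member of 16 tested collagens, whose median was -0.27, while the fibrillar COL1A1 had 260.4 and 287 TPM at D14 and 199, 218 and 238 TPM at D28 (adjusted p = 0.17). Of 27 integrins, laminins and matrix proteins (median -0.13) THBS1, which encodes thrombospondin 1, fell (42.9 and 41.7 against 21.6, 14.1 and 22.8 TPM, log2 fold change -1.11), but its adjusted p was 0.0707 to 0.231 without either D14 library or without the first or second D28 library. No call was made among 21 matrix proteases and inhibitors (-0.20), 25 TGF-β genes (-0.062) or 26 genes of the mesenchymal state (0.084). Of 21 tested neural stem and glial genes (0.035) the adhesion molecule L1CAM rose (7.93 and 10.1 against 36.2, 31.8 and 38.99 TPM), with an adjusted p of 0.162 and 0.0813 without the second or the third D14 library and 0.0536 without the first D28 library. Of 19 receptor tyrosine kinases (-0.049) FGFR2 rose from 0.200 and 0.0810 to 14.1, 8.44 and 15.3 TPM, and EGFR was at 65.6 and 71.7 and 79.98, 85.7 and 74.7 TPM (adjusted p = 0.214).

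Of 4 tested type I and III interferon ligands and receptors the IFN-λ receptor chain IFNLR1 rose (1.51), and 7 of the 12 listed genes were at 0 in all 5 libraries. Its adjusted p was 0.0656 and 0.087 without the second or the third D14 library. The single calls in the list of 25 unfolded protein response genes (CHAC1, 1.13), in 7 metallothioneins (MT1G, 2.66) and the pair in 61 histone genes (H3C4, 2.02, and H2AC6, 1.10) were likewise lost without single libraries. CHAC1 reached an adjusted p of 0.0612 to 0.199, MT1G one of 0.0547 to 0.154 and H3C4 one of 0.0671 to 0.168, and H2AC6 a log2 fold change of 0.96 without the third D14 library. The medians of the 3 lists were 0.094, 0.11 and 0.15.

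The summed levels of markers of other cell types overlapped between D14 and D28. Of 12 lymphocyte markers 2, CD3D among them, were listed at 0 in all 5 libraries and 7 were under 1 TPM, and their summed level was 6.24 to 6.49 TPM at D14 and 5.76 to 7.08 TPM at D28. The 12 macrophage and microglia markers, with AIF1 and TYROBP at 0 and 7 under 1 TPM, summed to 332 to 361 TPM at D14 and to 351 to 498 TPM at D28. Endothelial markers summed to 14.7 TPM in both D14 libraries and 11.5 to 14.9 TPM at D28, epithelial markers to 61.3 to 66.5 and 55.2 to 65.4 TPM, and neuron markers to 173 to 174 and 143 to 182 TPM. The call in these lists was KRT19. The summed mitochondrial mRNA level varied among the D28 libraries (8359, 6001 and 4686 TPM) around the D14 libraries (6660 and 6750 TPM, exact permutation test, p = 0.8).

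Set beside the other U87 groups, the library medians of both the higher and the lower genes at D28 were nearer to D3 than to D14. These comparisons share the D14 or D28 libraries with the comparison that chose the genes, so their values are given side by side. The 409 higher genes had library medians of 2.11 to 2.29 on the log2(TPM + 1) scale at D14 and 4.23 to 4.32 at D28, against 1.75 to 2.13 in Untreated, 4.07 to 4.11 in D3 and 4.22 to 4.28 in D28WO. The 76 lower genes had medians of 3.34 in both D14 libraries and 0.99 to 1.37 at D28, against 2.23 to 2.31 in Untreated, 1.69 to 1.89 in D3 and 1.64 to 2.02 in D28WO. Both sets were chosen for their levels at D14 and D28, so the contrast of these groups follows from the choice. Beside it, the higher genes lay low in Untreated and high in D3 and D28WO. The lower genes lay between their D14 and D28 levels in Untreated, D3 and D28WO. Gene by gene, the median log2 difference of D28 minus D3 was 0.18 over the 409 and -0.24 over the 76.

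**Figure D4:**
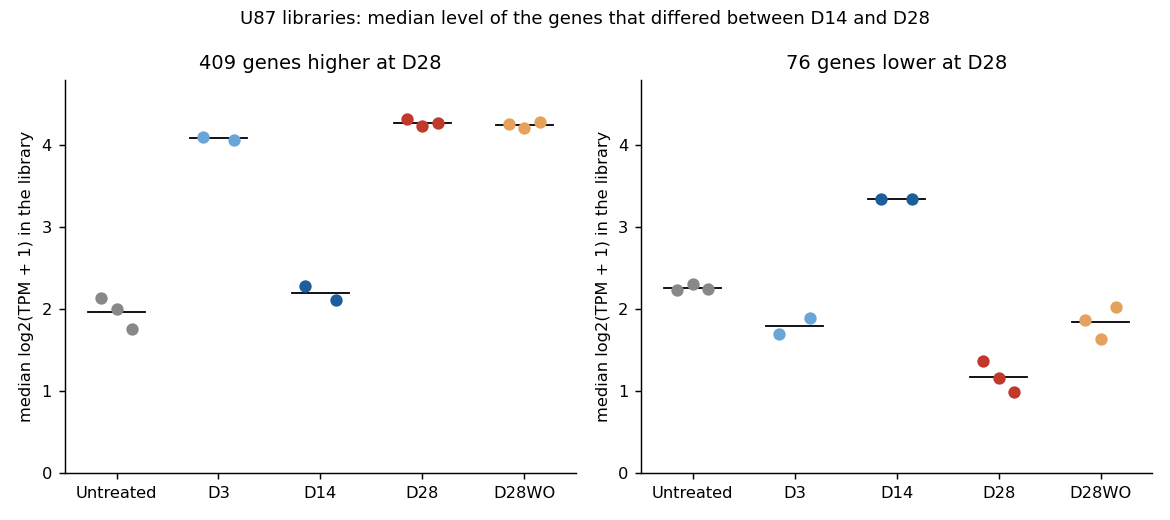
Median log2(TPM + 1) of the 409 genes higher at D28 (left) and of the 76 genes lower at D28 (right) in each of the 13 U87 libraries (dots, by group on the x axis), with a line at the group mean. The left panel shows Untreated and D14 between 1.75 and 2.29 and D3, D28 and D28WO between 4.07 and 4.32, and the right panel shows both D14 libraries at 3.34 above every other library.

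Directly between D28 and D3, 3 of all 22918 genes were higher (0.0131%) and 16 lower (0.0698%). All 3 that were higher were among the 409, and 2 of the 409 and 2 of the 76 were lower. The 3 were CX3CL1 (2.24, adjusted p = 0.0119), SOX18, a transcription factor of the endothelium (0.596 and 1.33 TPM in D3, 8.400, 12.9 and 9.36 TPM in D28, adjusted p = 0.00967), and SP140, a nuclear body protein (12.5 and 17.7 TPM in D3, 33.6, 32.1 and 32.8 TPM in D28, adjusted p = 0.0459). CXCL5 was lower at D28 than in D3, with 45.02 and 31.03 TPM in D3 (log2 fold change -1.71, adjusted p = 0.0113). The protease inhibitor SERPINB2 (-1.02), also among the 409, was the other. Among the genes outside the 485, the carboxylesterase CES1 (-2.45) and the activin subunit INHBA (-1.44) were lower at D28. The noncoding RN7SL461P, RN7SL76P and RN7SL797P, the pseudogene RPL31P52 and TGIF2-RAB5IF were lower too. Each of these was above 0 in both D3 libraries and listed at 0 in D14 and D28. None of the 120 interferon targets passed both limits between D28 and D3, with a median difference of 0.11. The count of lower genes was 38 without the third D3 library and 8 without the third D28 library, and that of higher genes 10 without the third D3 library, 5 without the second D3 library and 6 without the first D28 library.

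Between D28 and D28WO, which both continued from day 14, 555 genes (2.42%) were higher and 712 (3.11%) lower at D28. Of the 409 genes 49 were higher and 38 lower, with a median of 0.056, and of the 76 genes 1 was higher and 10 were lower. Of the 120 interferon targets 3 were higher and 2 lower at D28. Among the 409, those higher at D28 than in D28WO included LGALS9 (25.3, 23.7 and 17.4 TPM against 4.52, 6.52 and 3.42 TPM, adjusted p = 0.00136), SLC2A5 (4.89, 14.97 and 12.5 TPM in D28WO, adjusted p = 0.0155), TNFSF10 (log2 fold change 1.52) and OAS1 (1.69). Those of the 409 that were lower included CXCL5 (-1.68), CCL20 (-1.78), CCL5 (-1.51) and IL6 (-1.22). IDO1 was at 135, 137 and 135 TPM in D28WO and did not pass the test against D28 (adjusted p = 0.164).

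Against Untreated, D14 had 433 genes higher (1.89%) and 48 lower (0.209%), and D28 1552 higher (6.77%) and 140 lower (0.611%). Of the 409 genes 31 were higher and 10 lower in D14 than in Untreated, and 367 were higher and 0 lower in D28 than in Untreated. Of the 76 genes 24 were higher and 1 lower in D14 than in Untreated, and 32 were lower at D28 than in Untreated, among them MEST, ARHGDIB, NALCN, HGF and PGF. The 409 and the 76 genes were chosen by these same D14 and D28 libraries, which favours such counts, so the counts are a description.

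In U251, measured in a table normalised separately and fitted on its own, 1002 of 23667 tested genes (4.23%) were higher and 379 (1.6%) lower at D28 than at D14. Of the 409 genes 357 were tested there, of which 163 were higher and 3 lower. The 163 are 45.7% of the U87 genes and 19.5% of the 838 U251 genes called higher among genes tested in both lines. Of the 76 fallen genes 53 were tested in U251, of which 5 were lower (9.43% of these U87 genes and 1.89% of the 265 U251 ones) and 3 were higher. IDO1 went from 46.7, 36.002 and 52.6 TPM to 411, 389 and 405 TPM in U251 (log2 fold change 3.14, adjusted p = 4.3e-10), so that it was expressed there at D14 already. Over the interferon lists 46 of 123 tested genes were higher and 0 lower in U251, with a median of 0.73 against 1.04 in U87, where 61 of 120 were higher.

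Other genes with a large rise in U87 did not pass the limits in U251. IFI27 was at a mean of 186 TPM at D14 and 186 TPM at D28 in U251, and BST2 had a log2 fold change of 0.084 and SLC2A5 one of 0.27 there (adjusted p = 1, 0.547 and 0.654). SCUBE3 fell in both lines, from a mean of 54.5 to 6.18 TPM in U251 (log2 fold change -2.95), as did KRT19, SYTL5, TMEFF2 and 1 gene without a symbol. The U87 call of TMEFF2 was lost without the second (adjusted p = 0.124) or the third (0.122) D14 library and without the first D28 library (0.0594), and that of KRT19 without the libraries given above. COL13A1 differed in sign, with a mean of 22.9 TPM at D14 and 39.98 TPM at D28 in U251 (log2 fold change 0.78, adjusted p = 0.0126), and the named genes higher in U87 but lower in U251 were LAPTM5 and LOXL4. No test joined the lines.

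**Figure D5:**
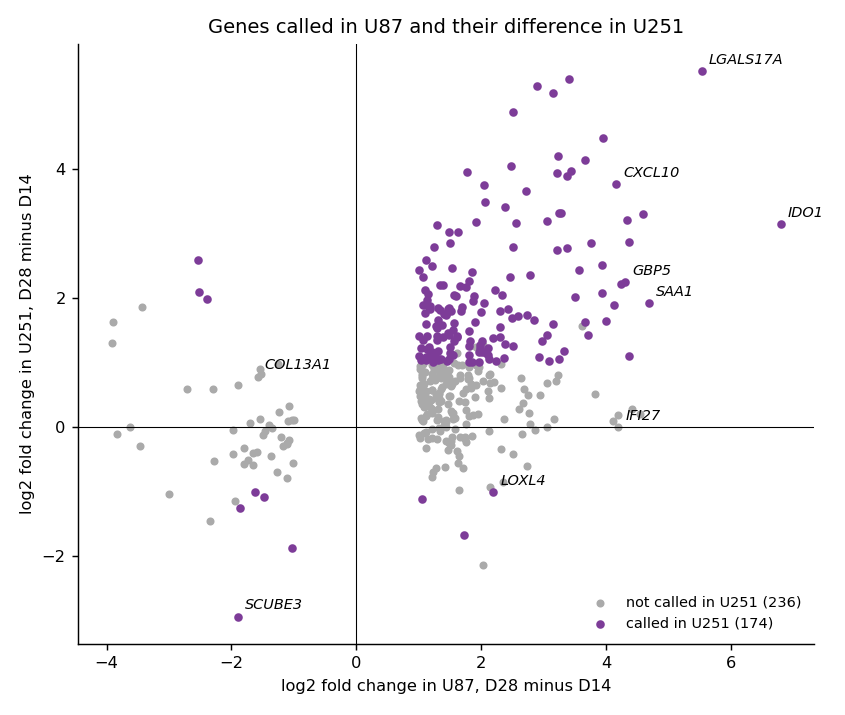
Log2 fold change, D28 minus D14, in U87 (x axis) and in U251 (y axis) of the genes called in U87 that were tested in both lines, with 174 genes called in U251 in purple and 236 not called there in grey. IDO1, LGALS17A and CXCL10 lie high on both axes, IFI27 lies near 0 in U251, SCUBE3 is low in both and COL13A1 and LOXL4 differ in sign.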

How the data were processed

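RNA of U87 and U251 cultures was sequenced after poly(A) selection (150-base paired reads). Per the submitters' processing notes and the methods, reads were trimmed with Trim Galore, aligned to GRCh38 with STAR and counted with featureCounts, and the authors deposited a table of TPM, a length-normalised relative abundance, for each line. The notes give no versions, and a supplementary description calls the values CPM. Strandedness of the counting is not given in the sources used here, so antisense partners cannot be told apart. Of the U87 columns 2 share a name and were not used, which leaves 13 libraries.

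Genes averaging 0.5 TPM or more across these 13 libraries were analysed as log2(TPM + 1), which understates changes of low genes. All 5 groups entered 1 limma fit with trend (limma 3.58.1, R 4.3.3), with Benjamini-Hochberg adjustment over 22918 genes, and a gene was called where the adjusted p was below 0.05 and its log2 fold change exceeded 1 in either direction. The authors' own test on counts was not run, because TPM are not counts. U251 was fitted separately. The procedure was tested on simulated data with independent normal noise at the spread of these libraries. Such data hold no effect shared between cultures and no wrong label, so the test does not speak to these. Genes named are the 10 largest rises and falls with at least 5 TPM, non-overlapping groups and no clone, locus, antisense or pseudogene symbol. Further named genes are the most abundant and most changed members of each list, members of short lists and, where stated, genes chosen after their values were seen. Members and lists were chosen with earlier results of these data known, and a list is described by counts and its median, without a test. Gene positions are from GENCODE 44, promoters from RefSeq. p-values measure the spread between cultures of 1 line. Alternatives were another pseudocount (0.1), other filters, quantile normalisation, median-ratio size factors, array weights, no trend, a replicate block, a fit on the D14 and D28 libraries alone and leaving out each library.

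The replicate numbers were not used to pair libraries. Python 3.11.15 with numpy 2.4.6 and matplotlib 3.10.9 served for summaries and figures. Some genes are not reported here.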

Additional observations from a re-analysis of the deposited data

Results flagged for a closer look

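Genes and lists were flagged where every library moved one way in U87 and the opposite way in U251 between D14 and D28. The difference between the lines was not tested, since their tables were normalised separately. COL13A1, a transmembrane collagen, had a log2 fold change of -1.58 in U87 and 0.78 in U251. CXCL5, a neutrophil attractant, had one of 2.01 in U87, while in U251 it was below the filter on low values, at 0.249, 0.226 and 0.189 TPM at D14 and 0.0861, 0.0889 and 0 TPM at D28. SOX18 stood at 2.35 in U87 and -0.86 in U251. LAPTM5, a lysosomal membrane protein, stood at 1.72 in U87, a call lost without either D14 library (adjusted p = 0.157 and 0.196) and without the first (0.104) or the second (0.0994) D28 library, and at -1.68 in U251. LOXL4, a collagen-crosslinking enzyme, stood at 2.19 in U87 and -1.02 in U251.

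Library medians of 3 lists, each with at most 1 called member in U87, moved in opposite directions in the same way. Medians of further lists, that of NF-kB subunits and targets among them (0.49 in U87 and -0.075 in U251), differed in sign between the lines without meeting this condition in every library. Of the 3 lists, G1 regulators and p53 targets had a median of 0.11 in U87 and -0.0087 in U251, glycolysis and hypoxia genes 0.070 and -0.31, and neural stem and glial genes 0.035 and -0.21. The U87 median of the neural stem and glial genes turned negative after quantile normalisation (-0.055) and without the first (-0.049) or the second (-0.0051) D28 library, and so had the sign of the U251 median, which was not recomputed. The U87 median of the glycolysis and hypoxia genes was 0.014 to 0.066 with 1 library left out.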

How the results depend on the processing

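Of the named genes called between D14 and D28 in U87 none reversed under any alternative run, and 87 of the 126 called named genes were called under every one. The count of higher genes (409) was 192 and that of lower genes (76) was 47 with only the D14 and D28 libraries in the fit, 673 and 257 by adjusted p alone, and 127 lower after quantile normalisation. Leaving out 1 library gave 268 to 396 higher and 58 to 79 lower genes, fewest without the third D14 library. With the replicate block 322 genes were higher and 68 lower. Same-numbered D14 and D28 libraries did not deviate together (correlation of deviations -0.019 and -0.058). The deviations of the D14 libraries from their mean mirror each other, so these correlations rest on the same D14 difference. They cannot decide whether the numbers pair the libraries. By adjusted p alone D28 had 1934 genes higher and 2268 lower than D28WO, and U251 2681 and 2244. Against D3 the 3 higher genes became 6 with a pseudocount of 0.1, 7 without a filter, 10 after quantile normalisation, 5 with size factors, 5 without the trend, 6 by adjusted p alone and 3 to 10 with 1 library left out, and the 16 lower genes 8 to 38.

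Most list medians moved by less than 1 SD between libraries (26 of 735 values moved more), but 11 of 49 medians, none above 0.152 in size as reported, changed sign under at least 1 alternative. Without the filter interferon-induced transcription factors had 0.78, guanylate-binding proteins 2.51 and leukocyte adhesion 0.15. CXCR3 ligands with CCL2 and CCL5 had 3.21 and checkpoint ligands 1.81 with a pseudocount of 0.1, CXCR3 ligands 2.53 at a filter of 1 TPM and checkpoint ligands 1.25 with the replicate block. Lymphocyte markers had -0.29 with the filter over the D14 and D28 libraries, and the silent keratin-associated, taste receptor and defensin genes 0.23 at 1 TPM. With 1 library left out the medians ran from 0.73 to 0.91 for interferon-induced transcription factors, 0.095 to 0.45 for negative feedback, 0.84 to 0.97 for HLA class I, 1.08 to 1.23 for class II, 1.10 to 1.70 for CXCR3 ligands, 1.05 to 1.51 for checkpoint ligands, 0.88 to 1.11 for antiviral effectors, 1.08 to 1.51 for complement and -0.17 to -0.075 for MYC targets. The causes were not tested. With 2 D14 libraries and no read counts, small differences and low genes are the least certain.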
